A study of Mus musculus with 12 samples.

Results

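The expression of 9 genes of hepatic glucose handling and the insulin response was examined in adult male offspring of vitamin D deficient and sufficient mothers: Pklr, G6pc, Pck1, Fbp1, Gys2, Foxo1, Ppargc1a, Pdk4 and Irs2. The genes were taken by symbol from a list among 52636 annotated genes. All 9 were among the 12453 genes that passed the filter on low counts, a mean of at least 12 counts over the 12 libraries. Their lowest count in any library was 72, for Pdk4, and their highest was 63840, for Pck1. In GRCm38, Pklr lies on the + strand at chr3:89136142-89146784, G6pc at chr11:101367561-101377903 (+), Pck1 at chr2:173153048-173159273 (+) and Fbp1 at chr13:62864753-62888282 (-). Gys2 lies at chr6:142422613-142473109 (-) and Pdk4 at chr6:5483351-5496309 (-). Foxo1 lies at chr3:52268336-52353221 (+), Ppargc1a at chr5:51454250-51567726 (-) and Irs2 at chr8:10984681-11008458 (-). Pklr had at least 1578 counts in every library, G6pc 2297, Pck1 23578 and Fbp1 11749.

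Liver RNA was sequenced from 6 VDD-F1 and 6 VDS-F1 mice, all males of the C57Bl/6J strain at 16 weeks of age, with 1 library per mouse. The mothers of VDD-F1 mice ate a diet lacking vitamin D (VDD), with calcium gluconate added, before mating and through pregnancy. The mothers of VDS-F1 mice ate a nutrient-matched diet with sufficient vitamin D (VDS). Both groups had fathers on the control diet, both received the VDS diet after weaning, and the RNA came from the left lateral lobe. Which mice were littermates, the hour of dissection and the feeding state were not given in the sources used here. If mice shared a mother, p-values that treat each mouse as separate are too small. The study's supplement records a liver weight for 7 of the mice (VDS3 to VDS6 as well as VDD4 to VDD6) and not for the other 5 (VDD1 to VDD3, VDS1 and VDS2). This record separates the mice into sets that each hold both diets, and the diet comparison was also made within each set. What else differed between the sets is not stated.

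Each library held 25897868 to 36403413 fragments, of which 14275793 to 20815066 were counted on the reverse strand of genes. VDS6 stood apart with 11.1% of its fragments on no exon of a gene on the counted strand, against a median of 3.42%. The reverse strand carried 99.4% to 99.8% of the stranded counts of each listed gene. In the annotation, other genes overlap Foxo1 (Gm38034) and Ppargc1a (Gm42614, Gm42615 and Gm43605) on the same strand, and fragments on both genes go uncounted. The counts of Foxo1 and Ppargc1a are therefore less certain than the others. The list of hepatocyte markers summed to 101712 to 133018 CPM per library, where CPM is the count of a gene scaled to the size of its library, with 11 of 11 markers that were found in the files detected.

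Between meals the liver releases glucose, made from lactate, glycerol and amino acids (gluconeogenesis) or from glycogen, and after a meal it takes up glucose and stores it as glycogen and fat. Glucagon and glucocorticoids raise the genes of gluconeogenesis through cAMP, Foxo1 and the coactivator encoded by Ppargc1a, while insulin lowers them by keeping Foxo1 out of the nucleus. Glucose itself acts through the factor ChREBP, encoded by Mlxipl, which binds carbohydrate response elements (ChoREs) in genes of glycolysis and fat synthesis. Most of these genes also follow the hour of the day and the last meal.

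Promoter sequences from RefSeq on build GRCm38.p6, from 250 bases before to 50 bases after the annotated start, were found for 8 of the 9 genes. Those of Pklr, Ppargc1a and Irs2 are shown because these genes differed between the sets of mice at an unadjusted p under 0.05. Gys2, which also did, is named only. Both strands were searched for the FOXO core, written TGTTTAC, and for the core of the insulin response element, written CAAAACA. The cAMP response element (CRE) was searched as TGACGTCA. Its shorter form, the CRE half-site TGACG, lies inside it. The E-box was written CACGTG, the HNF4 half-site was written CAAAG, and the TATA box was written TATAAA. The ChoRE half-site CACGGG was added after the Pklr sequence had been seen. Capitals mark every match. All sequences read 5′ to 3′ on the strand of the gene.
Pklr, upstream start, chr3:89135892-89136191, + strand: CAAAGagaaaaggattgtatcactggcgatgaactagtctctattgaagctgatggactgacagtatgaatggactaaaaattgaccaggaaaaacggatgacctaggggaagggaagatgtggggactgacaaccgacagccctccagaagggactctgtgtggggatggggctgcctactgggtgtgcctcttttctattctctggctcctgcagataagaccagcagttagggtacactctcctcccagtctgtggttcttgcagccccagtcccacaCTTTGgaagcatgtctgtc
Pklr, downstream start, chr3:89136373-89136672, + strand: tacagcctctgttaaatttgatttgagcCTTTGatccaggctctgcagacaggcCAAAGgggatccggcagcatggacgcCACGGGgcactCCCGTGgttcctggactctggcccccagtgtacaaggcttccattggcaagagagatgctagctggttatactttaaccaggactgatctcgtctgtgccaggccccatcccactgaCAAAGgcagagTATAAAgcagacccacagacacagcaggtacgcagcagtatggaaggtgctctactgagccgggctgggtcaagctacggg
Ppargc1a, chr5:51567676-51567975, - strand: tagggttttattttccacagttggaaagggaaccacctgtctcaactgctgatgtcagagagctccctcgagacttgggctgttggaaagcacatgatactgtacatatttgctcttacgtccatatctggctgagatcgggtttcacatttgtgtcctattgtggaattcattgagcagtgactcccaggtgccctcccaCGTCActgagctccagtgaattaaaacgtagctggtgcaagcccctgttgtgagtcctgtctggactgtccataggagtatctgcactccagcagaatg
Irs2, chr8:11008880-11009179, - strand: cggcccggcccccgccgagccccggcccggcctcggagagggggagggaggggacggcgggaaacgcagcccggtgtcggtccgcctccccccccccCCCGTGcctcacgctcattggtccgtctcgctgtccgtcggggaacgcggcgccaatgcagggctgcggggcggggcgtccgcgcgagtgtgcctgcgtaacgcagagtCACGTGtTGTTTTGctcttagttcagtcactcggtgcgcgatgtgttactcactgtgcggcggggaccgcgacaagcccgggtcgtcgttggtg

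The downstream start of Pklr is known as that of the liver enzyme, and the upstream one as that of the red cell enzyme. The downstream window held CACGGG from base -170 to -165 and its reverse complement CCCGTG from -159 to -154, with the annotated start as base 0, which together form the known ChoRE of this promoter. The window also held a TATA box from -31 to -26 and 3 HNF4 half-sites. CACGGG or its reverse complement was found in 10.1% of the 32817 promoter windows of the same length, TATAAA in 13.6% and CAAAG in 54.0%. The Irs2 window held an E-box from -44 to -39 and, right after the next base, TGTTTTG, the reverse complement of CAAAACA, from -37 to -31. E-boxes were found in 7.15% of windows and CAAAACA in 6.29%. The RefSeq start of Irs2 lies upstream of the start in GENCODE, at 11008458. The Ppargc1a window held 1 CRE half-site, from -49 to -45, as 20.8% of windows did in some place. Irs2 also held CCCGTG once, from -153 to -148. In the remaining windows, G6pc held TGTTTTG from -174 to -168, a TATA box from -29 to -24, 2 HNF4 half-sites and CACGGG from 37 to 42, Pck1 a CRE half-site from -90 to -86 and 1 HNF4 half-site, and Pdk4 3 HNF4 half-sites. No window of the 8 genes held the FOXO core, which was in 3.65% of all windows, or the full CRE, in 1.79%. Such matches describe letters and do not show binding.

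Per length, as CPM per kilobase of exon, the 9 genes spanned a wide range of levels over the 12 mice. Pck1, the enzyme that commits oxaloacetate to gluconeogenesis, had 661 ± 218 CPM per kilobase (SD, n = 12) and Fbp1, fructose bisphosphatase, 564 ± 44.8. Pck1 was above Fbp1 in 7 of 12 mice only, so this pair cannot be put in order. G6pc, the glucose-6-phosphatase that frees glucose for release, followed with 208 ± 85.5 CPM per kilobase and Pklr, the pyruvate kinase that ends glycolysis, with 122 ± 85.3 (G6pc was higher in 10 of 12 mice). Gys2, the liver glycogen synthase, had 48.4 ± 11.2 CPM per kilobase. The regulators were lower, with Irs2, an adaptor of the insulin receptor, at 10.8 ± 4.09 CPM per kilobase and the transcription factor gene Foxo1 at 8.89 ± 2.15, and Irs2 was above Foxo1 in only 7 of 12 mice. Pdk4, a kinase that switches off pyruvate dehydrogenase, had 3.87 ± 1.89 CPM per kilobase and Ppargc1a 2.54 ± 1.45, in that order in 8 of 12 mice.

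The genes also differed in how much they varied between mice. The highest mouse had 8.34 times the CPM of the lowest for Pklr, 7.42 times for G6pc and 6.76 times for Ppargc1a, but only 1.30 times for Fbp1. The coefficient of variation over all mice was 70.0% for Pklr and 7.94% for Fbp1.

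**Figure D1:**
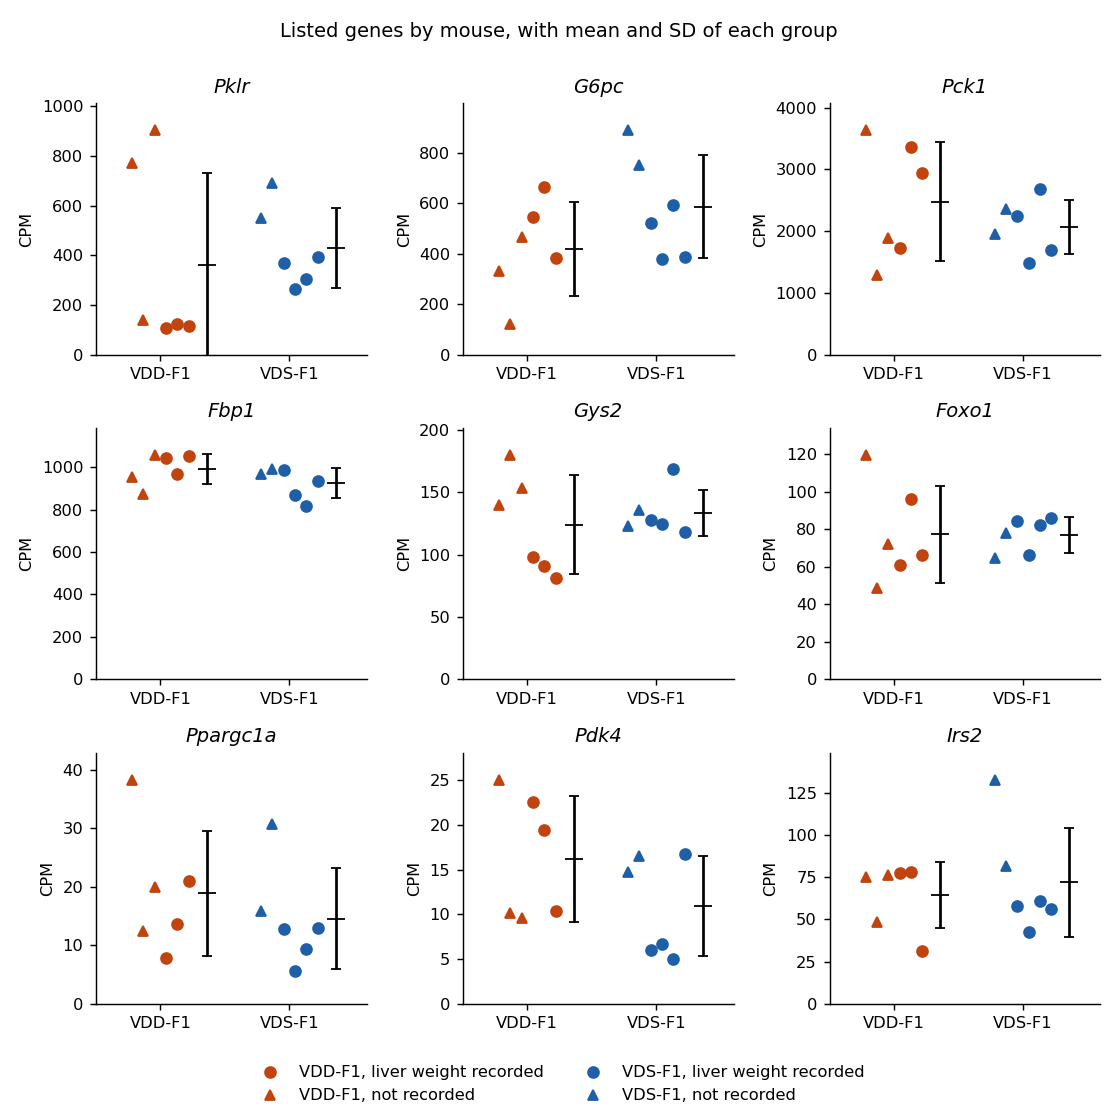
CPM (TMM-normalized, linear axes from 0) of the 9 listed genes in each of 6 VDD-F1 and 6 VDS-F1 mice, with circles for mice with and triangles for mice without a recorded liver weight, and the mean ± SD of each group beside the points. The diet groups overlap for all 9 genes, Pklr lies between 108 and 138 CPM in 4 VDD-F1 mice and above 264 in the others, and the lower SD bar of Pklr in VDD-F1 runs past the axis.

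The comparison by diet asks whether exposure before birth went along with another level of these genes in the adult liver. None of the 9 genes differed between VDD-F1 and VDS-F1 (edgeR quasi-likelihood test, Benjamini-Hochberg adjustment over 12453 genes), and 0 of 9 had an unadjusted p under 0.05, also with DESeq2. Of all genes tested, 0.0402% were DEGs (adjusted p under 0.05 with a log2 value beyond 1 in either direction) and 15.8% had an unadjusted p under 0.05. The 2 groups overlapped for all 9 genes, while they did not overlap for 1.18% of all genes. With voom and quality weights, which give outlying libraries less weight, 3 of the 9 had an unadjusted p under 0.05 (Pklr, Pdk4 and Gys2) beside 22.8% of all genes by this method, with adjusted p of 0.0988 to 0.205.

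Among the enzymes of gluconeogenesis, G6pc ranged from 119.9 to 665 CPM in VDD-F1 (median 425) and from 377 to 889 in VDS-F1 (median 558). The mean was 419 ± 188 in VDD-F1 against 587 ± 203 in VDS-F1 (SD, 6 mice each), and the log2 fold change was -0.49 ± 0.32 (SE, adjusted p = 0.494). The lowest value, 119.9 CPM, was that of VDD2. Pck1 ranged from 1286 to 3631 CPM in VDD-F1 (median 2411) and from 1477 to 2674 in VDS-F1 (median 2096; log2 fold change 0.26 ± 0.24, adjusted p = 0.640). Fbp1 lay between 876 and 1058 CPM in VDD-F1, between 816 and 991 in VDS-F1, and its log2 fold change of 0.10 ± 0.09 had the smallest error of the 9 genes (adjusted p = 0.629).

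In glycolysis and glycogen storage, Pklr was 360.3 ± 373 CPM among VDD-F1 and 429 ± 161 among VDS-F1 mice, a log2 fold change of -0.25 ± 0.55 (adjusted p = 0.869). Its median was 132 CPM for VDD-F1 against 381 for VDS-F1. The size of the difference depended on the model and the mice: it was -0.93 with the set of mice as covariate (unadjusted p = 0.0357, adjusted p = 0.254), -0.86 with a replicate block (adjusted p = 0.411), -0.99 with voom (adjusted p = 0.205), -0.77 without VDD3, -0.63 without VDD1 and -0.06 without VDD4. The VDD-F1 mice lay at both ends of the range, and its highest mice, VDD1 and VDD3, were among those without a recorded liver weight. Gys2 was 124 ± 39.6 CPM among VDD-F1 and 133 ± 18.4 among VDS-F1 mice (log2 fold change -0.10 ± 0.18, adjusted p = 0.829). Pdk4 lay between 9.57 and 25.1 CPM in VDD-F1, between 4.999 and 16.7 in VDS-F1, and its log2 fold change of 0.56 ± 0.35 was the largest of the 9 (adjusted p = 0.459).

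Of the regulators, Foxo1 was 77.2 ± 26.0 CPM among VDD-F1 and 76.8 ± 9.34 among VDS-F1 mice. Its log2 fold change was 0.0064 ± 0.18 (adjusted p = 0.993), and its sign turned with the strand used, the filter and the mice included. Ppargc1a had 18.9 ± 10.7 and 14.6 ± 8.68 CPM (log2 fold change 0.37 ± 0.39, adjusted p = 0.690), and its log2 fold change was 0.04 without VDD1 and 0.73 without VDS2. Irs2 had 64.5 ± 19.7 and 72.0 ± 32.4 CPM (log2 fold change -0.16 ± 0.27, adjusted p = 0.820).

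The diet comparison was then made within each set of mice. In the 7 mice with a recorded liver weight, Pklr was 108, 125 and 114 CPM in VDD4, VDD5 and VDD6, and 367, 265, 306 and 394 CPM in VDS3 to VDS6. Every VDD-F1 mouse was below every VDS-F1 mouse of this set. The log2 fold change was -1.53 ± 0.44 in the model of both sets (edgeR, unadjusted p = 0.00414, adjusted p = 0.0935) and -1.52 ± 0.13 when these 7 mice were fitted alone (adjusted p = 3.42e-05), where the spread within the other set does not enter. In the 5 other mice, Pklr was 773, 138 and 904 CPM in VDD1, VDD2 and VDD3, and 549.7 and 689.7 CPM in VDS1 and VDS2. Here the groups overlapped, with VDD2 far below and the other VDD-F1 mice above the VDS-F1 mice (log2 fold change -0.04 ± 0.50, adjusted p = 0.996).

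In CPM, Gys2 showed the same order in the recorded set, with 98.1, 91.2 and 81.4 CPM in VDD4 to VDD6 and 128, 124, 169 and 118 CPM in VDS3 to VDS6. Its log2 fold change there was -0.58 ± 0.14 (adjusted p = 0.0510, and 0.0121 for these 7 mice alone). In the other set Gys2 was 139.7, 180.1 and 154 CPM in VDD-F1 and 123 and 136 CPM in VDS-F1, higher in every VDD-F1 mouse, with a log2 fold change of 0.28 ± 0.16 (adjusted p = 0.684). The order of Gys2 depended on the scaling. In TPM, where counts per exon length are scaled to their sum, the diets overlapped in both sets, at 68.6 to 70.6 in VDD-F1 and 64.8 to 101 in VDS-F1 with a record, and at 85.6 to 165 and 102 to 103 without one. A single RNA of 57 bases, Gm23935, held 10.1% to 58.2% of the TPM of a library, with the highest share in VDS5. With this RNA left out of TPM, Gys2 was 80.5 to 94.5 in VDD-F1 and 102 to 162 in VDS-F1 of the recorded set, again without overlap, but in the other set the diets still overlapped (128 to 198 and 115 to 130.05). Pklr kept its order in the recorded set in TPM, with and without this RNA. Pdk4 was 22.6, 19.5 and 10.4 CPM in the recorded VDD-F1 mice and 6.05, 6.66, 4.999 and 16.7 CPM in the recorded VDS-F1 mice, where VDS6 lay within the range of the VDD-F1 mice (log2 fold change 1.02 ± 0.43, adjusted p = 0.231).

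For G6pc the diets lay apart in the other set. Without a recorded liver weight it was 331, 119.9 and 467 CPM in VDD1 to VDD3 and 889 and 749.9 CPM in VDS1 and VDS2, with no overlap and a log2 fold change of -1.42 ± 0.41 (unadjusted p = 0.00389, adjusted p = 0.398). With a recorded liver weight it was 545, 665 and 384 CPM in VDD4 to VDD6 and 524, 377, 593 and 387 CPM in VDS3 to VDS6, where the groups overlapped (log2 fold change 0.18 ± 0.34, adjusted p = 0.829). Irs2 was 75.1, 48.6 and 76.4 CPM in VDD1 to VDD3 and 133 and 81.8 CPM in VDS1 and VDS2 (log2 fold change -0.69 ± 0.33, adjusted p = 0.643), and 0.20 ± 0.28 on the log2 scale in the recorded set.

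In the recorded set, 3 of 9 genes had an unadjusted p under 0.05 (Gys2, Pklr and Pdk4) beside 18% of all genes, and 0 of 9 were DEGs in the model of both sets beside 1.24%. Pklr and Gys2 did not overlap between the diets there in CPM, as 23.4% of all genes did not. In the set without a record, 1 of 9 (G6pc) had an unadjusted p under 0.05 beside 8.07% of all genes, and 3 of 9 (G6pc and Irs2 lower, Gys2 higher in VDD-F1) did not overlap in CPM beside 18.5% of all genes. The difference between the sets was tested as an interaction. Its log2 value, the recorded set minus the other, was -0.86 ± 0.21 for Gys2 (unadjusted p = 0.00145, adjusted p = 0.197), 1.6 ± 0.53 for G6pc (unadjusted p = 0.00997, adjusted p = 0.366) and -1.49 ± 0.67 for Pklr (unadjusted p = 0.0438, adjusted p = 0.540). These 3 of 9 stood beside 9.01% of all genes at this level, and 0 of 9 passed the adjusted test beside 0.0883%. Without VDD2, the interaction was -1.96 for Pklr (adjusted p = 0.000397), but without any one of 10 other mice (all but VDS4) its unadjusted p was 0.0536 to 0.133, and with DESeq2 that of Gys2 passed (adjusted p = 0.0218).

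**Figure D2:**
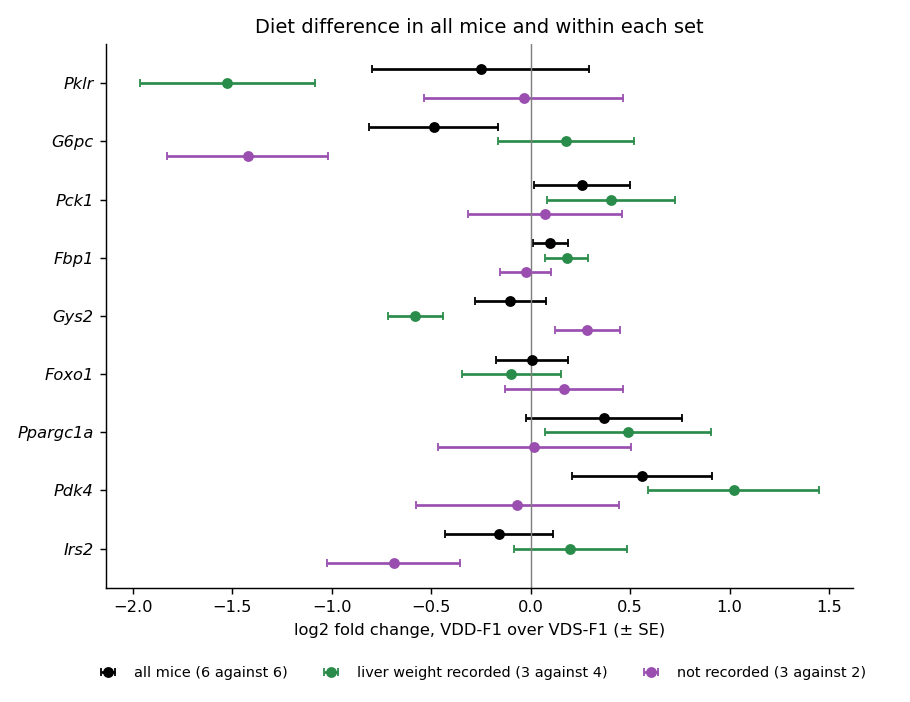
Log2 fold change of VDD-F1 over VDS-F1 (x axis, ± SE from edgeR) for each of the 9 genes in all mice (black), in the mice with a recorded liver weight (green) and in those without (purple). Pklr and Gys2 lie below 0 in the recorded set by more than their SE, and G6pc lies at -1.42 in the set without a record and at 0.18 in the other.

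The interaction was also examined in genes that respond to glucagon, glucocorticoids, fasting and the hour of the day, and it passed the adjusted test for Sik1 and Sgk1. At an unadjusted p under 0.05, the interaction was positive for 5 and negative for 3 of 26 genes of the glucagon and cAMP response, positive for 4 and negative for 3 of 14 glucocorticoid-responsive genes, and positive for 2 and negative for 9 of 19 genes of the clock and the hour of the day. It was positive for 0 and negative for 10 of 19 Ppara target genes of fasting, with a median of -0.73. Of all genes, 4.24% were positive and 4.77% negative at this level. The adjusted test was passed by 1, 1, 0 and 0 genes of these lists. Sik1, a kinase gene induced by cAMP, was 54.8 to 101 CPM in recorded VDD-F1 mice and 22.7 to 43.0 in recorded VDS-F1 mice, but 18.6 to 44.7 in the other VDD-F1 mice and 90.3 and 124 in the other VDS-F1 mice. Its diet difference was 1.39 ± 0.29 on the log2 scale in the recorded set and -1.82 ± 0.35 in the other, and the interaction passed the test (3.21 ± 0.45, adjusted p = 0.0156). Sgk1, a gene induced by glucocorticoids, had the same pattern (interaction 2.77 ± 0.44, adjusted p = 0.0321). Igfbp1, an insulin-repressed gene of fasting, had an interaction of 3.28 ± 0.79 that did not pass (adjusted p = 0.178). The clock genes Nr1d1 and Dbp had the opposite signs, with interactions of -3.14 ± 0.53 (adjusted p = 0.0573) and -6.78 ± 1.61 (adjusted p = 0.175). Nr1d1 was 51.1 to 57.2 CPM in recorded VDD-F1 mice and 49.8 and 57.7 in the other VDS-F1 mice. In recorded VDS-F1 mice it was 200.3 to 227 CPM except in VDS6, at 58.1, and in the other VDD-F1 mice it was 132 to 170.4. These genes were named after their values were seen.

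**Figure D3:**
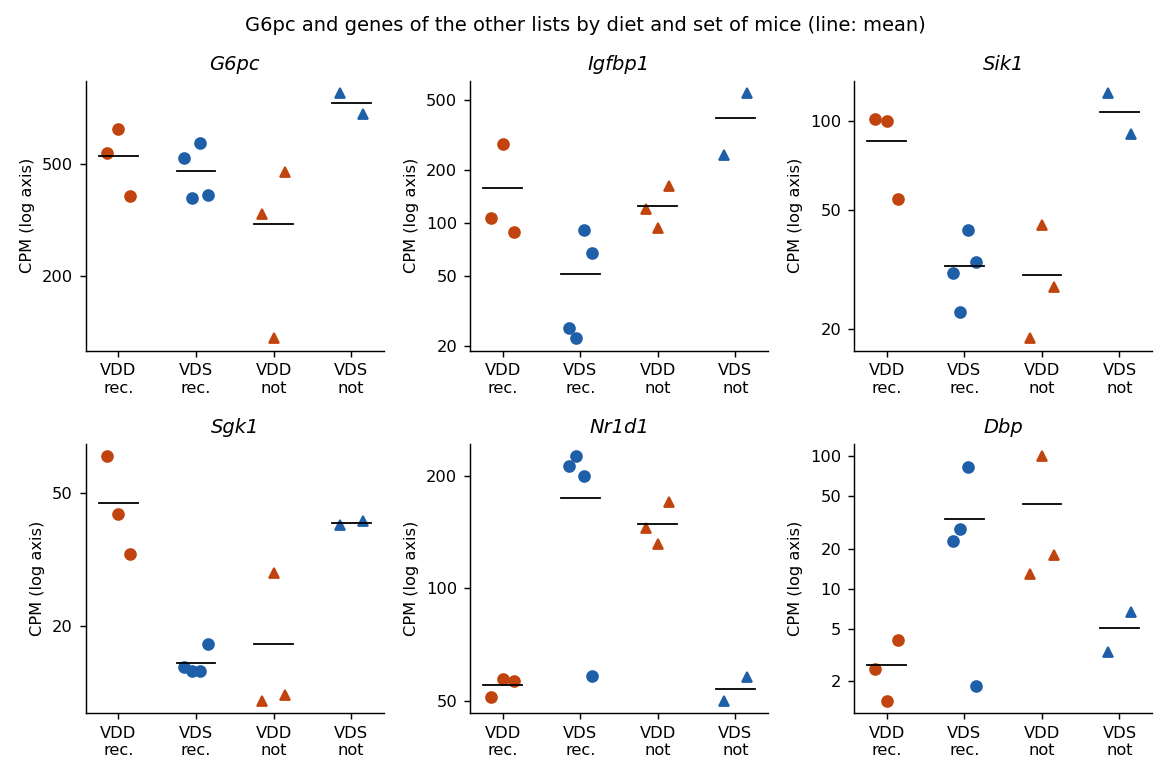
CPM on a log axis of G6pc, Igfbp1, Sik1, Sgk1, Nr1d1 and Dbp in each mouse, by diet and by whether a liver weight was recorded (rec.) or not, with lines at the means. G6pc, Igfbp1, Sik1 and Sgk1 have their highest means in VDD-F1 mice with and VDS-F1 mice without a record, where Nr1d1 and Dbp have low means.

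Of the 19 genes for the clock and the hour of the day, 18 had a negative log2 fold change by diet, with a median of -0.38 (all genes 0.0041), and at an unadjusted p under 0.05 there were 0 higher and 3 lower (all genes 9.55% and 6.29%). In the recorded set 0 were higher and 12 lower (all genes 9.32% and 8.71%), with a median of -0.82, and Hlf, Cry2 and Nr1d1 passed the adjusted test (adjusted p from 0.0216 to 0.0289), as 2.02% of all genes did. In the other set 3 were higher and 3 lower (all genes 4.54% and 3.53%), with a median of -0.15. The part of the hour of dissection or of feeding in the values of G6pc, Pklr and Gys2 was not tested.

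Between the sets of mice, with diet in the model, 1 of the 9 genes was a DEG. Pklr was 239.8 ± 123 CPM with (n = 7) and 611 ± 294 CPM without a recorded liver weight (n = 5), a log2 fold change of -1.72 ± 0.40 (edgeR, adjusted p = 0.0390). Of all genes, 0.891% were DEGs in this comparison, and 0.61% were DEGs in this direction. The call was not stable. Leaving out any one of 9 mice (VDD1, VDD3 to VDD6, or VDS2 to VDS5) gave adjusted p of 0.0558 to 0.120 with log2 fold changes of -1.43 to -1.90, while DESeq2 gave 0.00408.

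Ppargc1a was lower in the recorded set as well, at 11.9 ± 4.99 against 23.5 ± 10.8 CPM (log2 fold change -0.95 ± 0.31, unadjusted p = 0.00905), but it did not pass the adjusted test (adjusted p = 0.157). With DESeq2 its adjusted p was 0.0425, and without VDD2 its log2 fold change was -1.12 (adjusted p = 0.0426), which made it a DEG. Its values ran from 5.67 to 21.03 CPM in the recorded set and from 12.4 to 38.3 in the other, so the sets overlapped. Gys2 (-0.41 ± 0.16, adjusted p = 0.239) and Irs2 (-0.53 ± 0.24, adjusted p = 0.346) also had an unadjusted p under 0.05. These 4 of 9, all lower in the recorded set, stood beside 7.99% of all genes lower and 5.87% higher at this level. Some of these were lost without 1 mouse. Irs2 had an unadjusted p of 0.0586 to 0.257 without any one of VDD1, VDD3, VDD6 or the 6 VDS-F1 mice, with a log2 fold change of -0.28 without VDS1. Gys2 had 0.0630 without VDD5 and 0.0686 without VDD6, and Ppargc1a 0.0577 without VDS2. G6pc, Pck1, Fbp1 and Foxo1 had log2 fold changes between -0.01 and 0.08, and that of Pdk4 was -0.30 ± 0.35.

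The other genes of the same pathways were counted by list. The adjusted test between the sets was passed by 2.46% of all genes. At an unadjusted p under 0.05, 7.99% of all genes were lower and 5.87% higher in the recorded set. Of 24 glycolysis genes, 9 were lower and 0 higher in the recorded set at an unadjusted p under 0.05, with a median log2 fold change of -0.16 against -0.01 for all genes. Ldha, lactate dehydrogenase, fell by 0.47 on the log2 scale (SE 0.08, adjusted p = 0.00963), with Pklr the other gene of the list that passed, and Aldoa had -0.35 ± 0.09 (adjusted p = 0.0754). Of 21 gluconeogenesis genes, 4 were lower and 2 higher, with a median of -0.01. Slc2a2, the glucose transporter of hepatocytes, fell by 0.90 on the log2 scale (SE 0.21, adjusted p = 0.0399), while Slc37a4, which carries glucose-6-phosphate to G6pc, had -0.64 ± 0.18 (adjusted p = 0.0857) and Pcx, pyruvate carboxylase, -0.53 ± 0.17 (adjusted p = 0.153). Of 22 genes of glycogen metabolism, 6 were lower and 1 higher. Among those that passed the adjusted test were the branching enzyme Gbe1 (-0.79 ± 0.17, adjusted p = 0.0260) and Ugp2, which makes UDP-glucose (-0.50 ± 0.12, adjusted p = 0.0487).

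Among 11 genes of pyruvate dehydrogenase and its kinases, 3 were lower (Pdk1, Dlat and Pdha1) and none passed the adjusted test. Of 30 insulin signalling genes, 5 were lower and 2 higher (all genes 7.99% and 5.87%), with a median of -0.00084. Only Grb14, an inhibitor of the insulin receptor, passed (-0.41 ± 0.10, adjusted p = 0.0421). Pik3cb had -0.41 ± 0.10 (adjusted p = 0.0599) and Grb10 0.72 ± 0.24 (adjusted p = 0.166). Of 16 Foxo1 target genes, 6 were lower and 0 higher, among them Ppargc1a and Mttp (-0.34 ± 0.14, adjusted p = 0.268), and none passed.

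The lists that hold Pklr as a target had the most genes lower in the recorded set. Of 17 insulin-induced genes, 11 were lower and 0 higher (all genes 7.99% and 5.87%), with a median of -0.78, and 7 passed the adjusted test. Of 17 Mlxipl (ChREBP) target genes, 10 were lower and 0 higher, with a median of -0.80, and 6 passed. The lists share Pklr and genes of fat synthesis. Acaca, the enzyme that makes malonyl-CoA, fell by 1.35 on the log2 scale (SE 0.20, adjusted p = 0.00247) and Fasn, fatty acid synthase, by 1.90 (SE 0.33, adjusted p = 0.00882), from 3747 to 1117 CPM. Pnpla3, a lipid droplet gene induced by feeding, fell by 3.57 on the log2 scale (SE 0.59, adjusted p = 0.00595). Mlxipl itself had -0.07 ± 0.19 (adjusted p = 0.916) between the sets and -0.57 ± 0.18 by diet (adjusted p = 0.145).

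**Figure D4:**
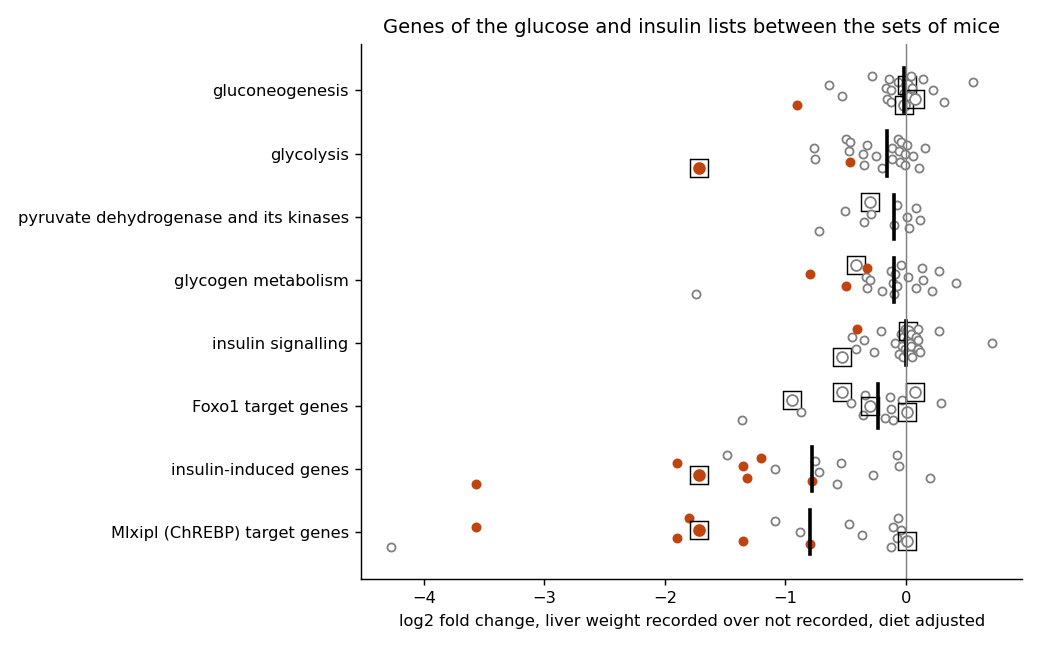
Log2 fold change of mice with over mice without a recorded liver weight, diet adjusted (x axis), for each tested gene of 8 lists (y axis). Filled points passed an adjusted p under 0.05, squares mark the 9 listed genes where a list holds them, and bars are the list medians, from -0.80 for Mlxipl (ChREBP) target genes to -0.00084 for insulin signalling.

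By diet, no gene of these 8 lists passed the adjusted test. At an unadjusted p under 0.05, 9.55% of all genes were higher and 6.29% lower in VDD-F1. The counts were 2 higher and 3 lower of 21 for gluconeogenesis, 3 and 1 of 24 for glycolysis, 2 and 2 of 22 for glycogen metabolism, and 0 and 3 of 30 for insulin signalling. Got1 (0.55 ± 0.15, adjusted p = 0.112) and Sds (0.73 ± 0.27, adjusted p = 0.221), which turn amino acids into substrates of gluconeogenesis, had positive log2 fold changes. Pfkfb3, a regulator of glycolysis, had -1.14 ± 0.41 (adjusted p = 0.201) and Ppp1r3b, which brings phosphatase to glycogen, -0.74 ± 0.28 (adjusted p = 0.223). In insulin signalling, Pik3r1, Rptor and Irs1 had -0.23 ± 0.09, -0.20 ± 0.08 and -0.34 ± 0.15 (adjusted p from 0.241 to 0.271). Of 16 Foxo1 target genes 1 was higher and 1 lower, of 17 insulin-induced genes 2 and 2, of 17 Mlxipl (ChREBP) target genes 2 and 2, and of 11 genes of pyruvate dehydrogenase 0 and 0. Of 26 genes of the glucagon and cAMP response, 2 were higher and 2 lower, and of 14 glucocorticoid-responsive genes 4 and 1. Of 19 Ppara target genes of fasting, which include Pdk4, 5 were higher and 0 lower, led by Cd36 (0.91 ± 0.22, adjusted p = 0.0947).

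Within the recorded set, some genes of these lists did pass the adjusted test by diet, as 2.02% of all genes did. At an unadjusted p under 0.05, 9.32% of all genes were higher and 8.71% lower in VDD-F1 of this set. Of 21 gluconeogenesis genes, 3 were higher and 4 lower in VDD-F1 at an unadjusted p under 0.05, and 3 passed. Slc2a2 had -1.27 ± 0.17 on the log2 scale (adjusted p = 0.00524), Slc37a4 -0.98 ± 0.20 (adjusted p = 0.0282) and Got1 0.83 ± 0.16 (adjusted p = 0.0236). Of 24 glycolysis genes, 1 was higher and 3 lower, and Pfkfb3 passed (-2.09 ± 0.43, adjusted p = 0.0296), which also stands among the insulin-induced genes. Of 17 Mlxipl (ChREBP) target genes, 2 were higher and 7 lower, and of 17 insulin-induced genes 2 and 4. The counts were 2 and 3 of 22 for glycogen metabolism, 0 and 6 of 30 for insulin signalling, 3 and 2 of 16 for Foxo1 targets, and 2 and 3 of 11 for pyruvate dehydrogenase and its kinases, with none passing in these 4 lists or among the Mlxipl targets. In the set without a record, no gene of the 8 lists passed, and of 19 Ppara target genes 11 were higher and 0 lower in VDD-F1 (all genes 4.54% and 3.53%), where none passed either.

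Over the 12 mice, the genes with the highest Pearson r of log2 CPM with Pklr were Tkfc, Gbe1 and Khk. Khk and Tkfc encode enzymes of fructose breakdown, and both stand on the list of ChREBP targets. Pklr fell into separate clusters, with VDD2, VDD4, VDD5 and VDD6 low, so r is given for the other 8 mice, where it was 0.973 with Tkfc, 0.976 with Gbe1 and 0.965 with Khk. These 8 mice hold both diets and both sets. Their Pklr was 549.7 to 904 CPM without and 265 to 394 CPM with a recorded liver weight, so r also holds the difference between the sets. In the 4 low mice Pklr was 108 to 138 CPM, Khk 136 to 164, Tkfc 207 to 276 and Slc2a2 143 to 289, against at least 265, 230.0, 351 and 319 CPM in the other 8. The most similar genes were Sdc2 for G6pc (r = 0.923), Thap2 for Pck1 (r = 0.906), Pgam1 for Fbp1 (r = 0.836), Eif4ebp1 for Gys2 (r = 0.919), Cpeb2 for Foxo1 (r = 0.933), Adcy1 for Ppargc1a (r = 0.907), St5 for Pdk4 (r = 0.904) and Lhx6 for Irs2 (r = 0.870).

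**Figure D5:**
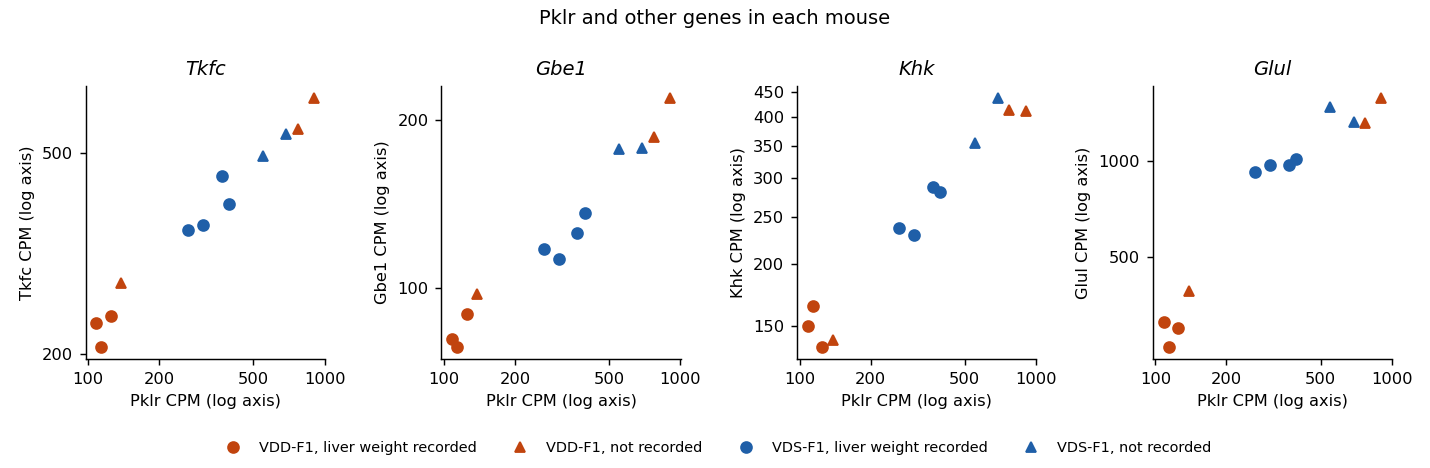
CPM of Pklr (x axes) against Tkfc, Gbe1, Khk and Glul (y axes), all on log axes, with 1 point per mouse, colours for diet and shapes for the set of mice. VDD2, VDD4, VDD5 and VDD6 form the low end in all 4 panels, with Pklr at 108 to 138 CPM and Glul at 261 to 392.

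Between the 9 genes themselves, 36 pairs were compared over the 12 mice, and no correlation passed Benjamini-Hochberg adjustment. Pck1 and Foxo1 had the highest Pearson r, 0.77 (permutation test, p = 0.00301, adjusted p = 0.108), with a Spearman rho of 0.657 (permutation p = 0.0239, adjusted p = 0.410). It fell to 0.507 without VDD1 and VDD2, the mice farthest from the median of Pck1, and was 0.481 in the 7 recorded mice. G6pc and Irs2 had r = 0.588 (permutation p = 0.0510, adjusted p = 0.446) and rho = 0.797 (permutation p = 0.00295, adjusted p = 0.106). Without VDD2 and VDS1, r was 0.530, and in the recorded mice it was 0.801. Pck1 and Ppargc1a had r = 0.570 (permutation p = 0.0528, adjusted p = 0.446) and rho = 0.622 (permutation p = 0.0342, adjusted p = 0.410), with r = 0.443 without VDD1 and VDD2 and 0.689 in the recorded mice. Pklr's pairs with Ppargc1a (r = 0.527, permutation p = 0.0789, adjusted p = 0.446) and Gys2 (r = 0.512, permutation p = 0.0926, adjusted p = 0.446) came next. Without VDD4 and VDD6 these were 0.626 and 0.195, and in the recorded mice they were -0.209 and 0.800. In the 8 mice outside the low cluster of Pklr, which hold both sets, r was 0.891 with Ppargc1a and 0.204 with Gys2. These are given as a description since the mice were chosen by their values. Gys2 had the lowest r, of -0.560 with Fbp1 (permutation p = 0.0575, adjusted p = 0.446; rho = -0.357, permutation p = 0.257, adjusted p = 0.733), -0.384 with Pdk4 (permutation p = 0.217, adjusted p = 0.520; rho = -0.434, permutation p = 0.161, adjusted p = 0.660) and -0.353 with G6pc (permutation p = 0.264, adjusted p = 0.560; rho = -0.245, permutation p = 0.441, adjusted p = 0.792). Without the mice farthest from the median of the first gene these were -0.508, -0.555 and 0.063, so that of Gys2 with G6pc rested on VDD2 and VDS1. In the recorded mice they were -0.848, -0.692 and 0.140.

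Markers of liver zones and of other cells moved with the same comparisons. Pklr and the enzymes of fat synthesis are known to be higher near the central vein, and gluconeogenesis near the portal vein. The summed level of 12 pericentral markers was 3494 to 9620 CPM in VDD-F1 and 7773 to 9772 in VDS-F1, and Glul, the defining marker, was 392, 313, 298 and 261 CPM in VDD2, VDD4, VDD5 and VDD6 against 918 to 1568 in the other 8 mice. By diet, 0 of 12 pericentral markers were higher and 3 lower at an unadjusted p under 0.05 (Cyp1a2, the DEG of the list, Cyp2e1 and Tbx3), and of 11 periportal markers 4 were higher and 0 lower. Of all genes, 9.55% were higher and 6.29% lower by diet at this level. Within the recorded set, 7 of 12 pericentral markers were lower in VDD-F1 and 0 higher (all genes 8.71% and 9.32%). Of these, 4 passed the adjusted test, as 2.02% of all genes did, among them Glul (-1.73 ± 0.33, adjusted p = 0.0243) and Cyp1a2 (-1.48 ± 0.23, adjusted p = 0.0136). Slc2a2 also passed as lower there, while Pklr and Gys2 did not pass in the model of both sets (edgeR, adjusted p = 0.0935 and 0.0510). Of the 11 periportal markers 7 were higher there and 0 lower, and none passed. Between the sets, the periportal markers Cyp2f2 (0.75 ± 0.12, adjusted p = 0.00602), Gls2 (0.75 ± 0.14, adjusted p = 0.0147) and Hal (0.83 ± 0.19, adjusted p = 0.0339) rose in the recorded set, and the pericentral Gulo (-0.74 ± 0.09, adjusted p = 0.000605) and Glul (-1.29 ± 0.32, adjusted p = 0.0499) fell. In bulk RNA, fewer cells of a type and less RNA per cell cannot be told apart.

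Red blood cell markers, whose cells also use Pklr, summed to 237 to 487 CPM in the recorded set and 524 to 1377 in the other, without overlap. Of these 6 genes, 4 passed as lower in the recorded set, led by Hbb-bs (-1.70 ± 0.29, adjusted p = 0.00671), while Alas2, an enzyme of heme synthesis in red cell precursors, had 0.35 ± 0.16 (unadjusted p = 0.0404, adjusted p = 0.324). Of all genes, 2.46% passed between the sets. Stellate cell markers summed to 314 to 924 CPM in VDD-F1 and 297 to 468 in VDS-F1, cholangiocyte markers to 33.7 to 134 and 41.2 to 62.4, endothelial cell markers to 348 to 436 and 326 to 491, Kupffer cell and macrophage markers to 136 to 350.4 and 185 to 346, and lymphocyte markers to 4.97 to 31.9 and 8.94 to 14.0. The defining markers of these cells were detected in at least 1 library each. By diet, 4 of 8 stellate cell markers and 3 of 6 cholangiocyte markers were higher at an unadjusted p under 0.05 and none lower, while 2 of 8 endothelial cell markers and 2 of 8 Kupffer cell and macrophage markers were lower and none higher. Of all genes, 9.55% were higher and 6.29% lower by diet at this level. Between the sets, 4 of 8 endothelial cell markers were higher in the recorded set and none lower, with all 8 log2 fold changes positive, and 2 of 8 Kupffer cell and macrophage markers were lower and none higher, with all 8 negative. Of all genes, 5.87% were higher and 7.99% lower in the recorded set at this level. None of these markers passed the adjusted test by diet or between the sets. Within the recorded set, the stellate cell marker Col3a1 (2.16 ± 0.51, adjusted p = 0.0480) and the endothelial Stab2 (-0.48 ± 0.10, adjusted p = 0.0287) passed by diet. The part of zones, red cells or other cells in the levels of the 9 genes was not tested.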

How the data were processed

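Liver RNA-seq of 6 VDD-F1 and 6 VDS-F1 mice was analysed. The authors trimmed the reads, aligned them to the mouse mm10 genome with STAR and deposited unnormalized counts per gene, for each strand and for both together. Reverse-strand counts were taken, as the kit keeps the strand. Symbols, positions and exon lengths were taken from GENCODE M21 on GRCm38, which matched 52489 of 52636 genes of the earlier release the authors used.

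Genes averaging 12 counts or more were normalized by TMM and tested with the quasi-likelihood test of edgeR 4.0.16 (legacy form) in R 4.3.3, for diet (where the study names DESeq2), for the set of mice with diet as covariate, and for their interaction. The p-values of these tests set each difference against the spread between these mice. CPM are TMM-normalized, and log2 CPM used a prior count of 2. Correlations used 100000 permutations (all 5040 orders for 7 mice). Alternatives were DESeq2 1.42.0, voom with quality weights (limma 3.58.1), size factors of DESeq2, counts of both strands, filters on the total count or none, each set alone and each mouse left out. The correlations without each mouse, and the order of the 9 genes in CPM without TMM, in TPM and in TPM without Gm23935, were added after seeing the data. Methods were tested on simulated data.

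The 9 genes, 22 lists and tests were chosen with earlier results of these data known. Named are the 9 genes, per list up to 3 genes with the smallest p for diet and for set, the genes most similar to each of the 9, and those marked as chosen later. Some genes of the lists enter the counts and are not reported here by name.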

Additional observations from a re-analysis of the deposited data

Results flagged for a closer look

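Gys2 in VDS5 was 169 CPM, far from the other 5 VDS-F1 mice, which ranged from 118 to 136. The gap to the nearest mouse was 0.644 of the range of the group, above Dixon's critical value for 6 samples. Of 18 groups tested this way (9 genes in 2 diet groups), 1 was flagged, and chance flags about 1 in 20. The distance depended on the scaling. It was 0.577 of the range in CPM without TMM and 0.530 in TPM without Gm23935, both below the critical value, and in TPM VDS5 was not the highest mouse (67.8, in a group from 64.8 to 103).

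The diet difference of Sik1, a kinase gene induced by cAMP, differed between the sets of mice, with an interaction of 3.21 on the log2 scale (adjusted p = 0.0156). The same held for Sgk1, induced by glucocorticoids, with 2.77 (adjusted p = 0.0321). None of the 9 listed genes passed this test.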

How the results depend on the processing

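The number of DEGs by diet, 5, was 253 with DESeq2, 252 with voom, 70 with no filter, 21 with the set of mice as covariate and 17 with the newer form of edgeR. It was 536 in the recorded mice alone, 0 in the others alone (edgeR, 472 genes at an unadjusted p under 0.05), and 0 to 260 without 1 mouse (260 without VDD1, 93 without VDD3, 12 without VDS2, 1 without VDS6, and 0 without VDD4, VDD5, VDD6, VDS3, VDS4 or VDS5, with 1545 to 1757 genes at an unadjusted p under 0.05). Same-numbered mice did not deviate together (r from -0.076 to 0.103), which does not show whether they shared a litter or a batch. A replicate block gave 17 DEGs by diet, -0.052 for Foxo1 and -0.86 for Pklr, and changed no call among the 9 genes. Of the 9 genes, the number at an unadjusted p under 0.05 by diet, 0, was 3 with voom, 1 with the set as covariate, 3 in the recorded mice and 2 in the others, beside 2840, 2111, 3170 and 472 of all 12453 genes. DEGs between the sets, 111, were 71 to 177 without 1 mouse (177 without VDD2, 71 without VDD4, 72 without VDD6). Genes with an interaction, 11, were 138 with DESeq2 and 3 to 334 without 1 mouse (334 without VDD2, 3 without VDD5, 17 without VDD1, 25 without VDS6, 6 without VDS1 or VDS3, 7 without VDD3 or VDD4). Pairs of the 9 genes that passed, 0, were 0 to 1 without 1 mouse (1 without VDD6 or VDS6). The causes were not tested.

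Signs turned only for genes that were not called. By diet, the log2 fold change of Foxo1 was -0.0083 without strand, -0.0025 with a total count of at least 12, -0.0031 with no filter, -0.042 with voom, -0.097 in the recorded mice and -0.16 to 0.11 without 1 mouse. Without 1 mouse it was -0.67 to -0.29 for G6pc, 0.12 to 0.39 for Pck1, -0.24 to -0.0058 for Gys2, 0.39 to 0.72 for Pdk4, -0.77 to -0.06 for Pklr and 0.04 to 0.73 for Ppargc1a. In the recorded mice it was 0.18 for G6pc and 0.20 for Irs2, which was 0.026 with voom and -0.27 to 0.11 without 1 mouse. In the other mice it was -0.024 for Fbp1, 0.29 for Gys2 and -0.064 for Pdk4. Between the sets, leaving out 1 mouse gave -0.26 to 0.22 for G6pc, -0.072 to 0.29 for Pck1, -0.053 to 0.019 for Fbp1 and -0.095 to 0.23 for Foxo1, and in the interaction -0.53 to 0.15 for Foxo1 and -0.084 to 1.02 for Ppargc1a. Pdk4 and Ppargc1a had as few as 72 and 109 counts in a library, the lowest of the 9 genes. The largest SE was that of Pklr, 0.55 by diet and 0.67 in the interaction.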
